A study of Mus musculus with 10 samples.

Results

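The guide strands of the miR-17 to miR-92a cluster and the miR-17 relatives of the miR-106a-363 cluster were measured through 8 probes, those whose printed name was mmu-miR-17, mmu-miR-18a, mmu-miR-19a, mmu-miR-19b, mmu-miR-20a, mmu-miR-92a, mmu-miR-106a or mmu-miR-20b, out of 1040 probes with a mouse miRNA name on the array. Within the files they were found by name, whatever their values, and all 8 are described here. Total RNA came from mIMCD-3 cells, an established mouse epithelial line of the inner medullary collecting duct. One group of 5 samples received 100 nM aldosterone and the other group of 5 received the vehicle, ethanol. Both groups had been plated at 70000 cells on transwell filters, so that the cells polarize, in medium with 10% fetal bovine serum, grown to confluence and then kept for 24 h in hormone-free medium. How long the treatment lasted is not stated in the labels. Whether the 5 samples of a group are separate cultures is not stated either, so a p-value here covers the spread between samples, which may be only technical.

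The miR-17 to miR-92a cluster is transcribed as 1 primary RNA that Drosha and Dicer cut into separate miRNAs. Each guide strand is loaded into an Argonaute protein and pairs through its seed, bases 2 to 8 from its 5′ end, with messenger RNAs that are then repressed, so members with the same seed share most predicted targets. The cluster is induced by the MYC transcription factors and is best known for supporting proliferation and survival. In mice it is needed for lung, heart and B cell development and for normal nephron formation, and in mouse models of polycystic kidney disease it promotes cyst growth. The miR-106a-363 cluster on the X chromosome is a paralog, known as a site of retroviral insertion in mouse T cell lymphomas. Aldosterone is the steroid hormone that acts through the mineralocorticoid receptor in the collecting duct and raises sodium reabsorption there.

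The mature sequences of all 8 miRNAs were found in RefSeq (build GRCm38.p6), and they fell into 4 seeds. They are shown because the seed sets which miRNAs share targets, and because several differ by so few bases that array probes may not separate them. The capitals mark the seed. Coordinates are those of the mature strand in GRCm38.p6. The array files name no build.
miR-17: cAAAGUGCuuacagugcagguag
miR-20a: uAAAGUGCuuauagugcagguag
miR-20b: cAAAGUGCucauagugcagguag
miR-106a: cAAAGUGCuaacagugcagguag
miR-18a: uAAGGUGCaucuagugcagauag
miR-19a: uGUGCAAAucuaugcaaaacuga
miR-19b: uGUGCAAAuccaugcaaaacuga
miR-92a: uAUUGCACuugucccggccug

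On chromosome 14, plus strand, RefSeq places 6 hairpins within 836 bases, in the order miR-17 (chr14:115043684-115043706), miR-18a (chr14:115043867-115043889), miR-19a (chr14:115044048-115044070), miR-20a (chr14:115044183-115044205), miR-19b (chr14:115044358-115044380) and miR-92a (chr14:115044476-115044496). On chromosome X, minus strand, 6 hairpins lie within 875 bases, in the order miR-106a (chrX:52742541-52742563), miR-18b, miR-20b (chrX:52742159-52742181), a second copy of miR-19b (chrX:52741991-52742013), a second copy of miR-92a (chrX:52741854-52741874) and miR-363. The long noncoding RNA gene Mir17hg, as annotated there, overlaps the last 2 hairpins of the chromosome 14 cluster, and the long noncoding RNA gene Kis2 overlaps the miR-106a hairpin. The mature miR-19b and miR-92a of both loci have the same letters, so their probes cannot tell the clusters apart. Of the 8 miRNAs, 4 came only from chromosome 14 and 2 only from chromosome X.

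**Figure D1:**
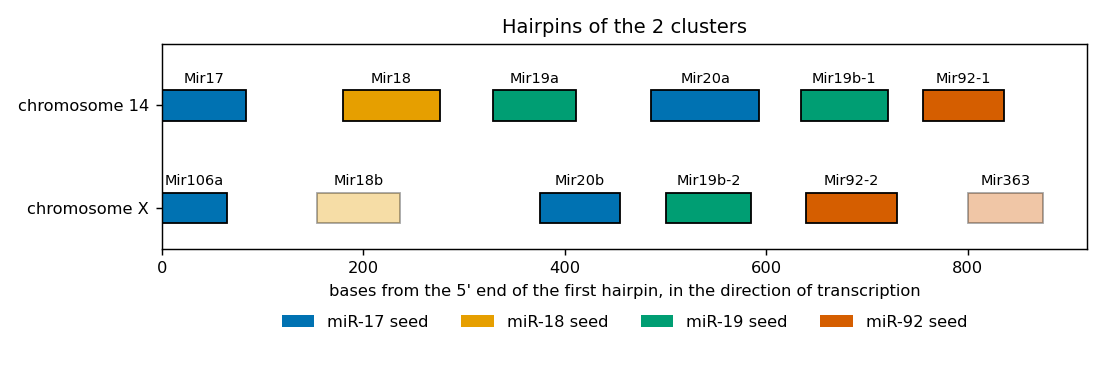
The 6 hairpins of each cluster are drawn to scale along the direction of transcription, in bases from the 5′ end of the first hairpin, and coloured by seed. Faded boxes are hairpins whose guide strands are not among the 8 miRNAs, and both clusters hold the seeds of miR-17, miR-18, miR-19 and miR-92.

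The seed AAAGUGC was carried by 4 of the 8 miRNAs, miR-17, miR-20a, miR-20b and miR-106a. Counted from 1 at the 5′ end and read from miR-17, miR-106a differed by U10A, miR-20a by C1U and C12U, and miR-20b by U10C and C12U. The seed GUGCAAA was shared by miR-19a and miR-19b, which differed by U11C alone. The seed AAGGUGC was that of miR-18a, which differed from miR-17 by C1U, A4G, U9A, A11C, C12U and G20A, so that 1 of the changes lies in the seed. The seed AUUGCAC belonged to miR-92a. The sequences of the array probes were not at hand, so cross-hybridization between these miRNAs was not tested.

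Signals are given as intensity above background in arbitrary units, from the raw spot intensities after background correction and quantile normalization between arrays. No probe's level is compared with another's, because probes hybridize with different efficiency. Signal was detected at all 8 probes, which does not show that each miRNA was present, since cross-hybridization was not tested. Detection required that both spots of the probe passed the authors' threshold on that array, and 7 of the 8 were detected on all 10 arrays, as were 243 of the 1040 mouse probes. miR-19a was detected on 9 arrays, and on vehicle replicate 2 only 1 of its 2 spots passed. Arrays differed in brightness before normalization. The median signal of the probes detected on all arrays ran from 9.80 to 33.6 in vehicle and from 15.3 to 57.1 with aldosterone, and vehicle replicate 2 was the dimmest array, with 275 mouse probes detected against 347 to 583 on the others. The background-corrected signals of the 8 probes summed to 235.6 on that array and to 344.5 to 2888 on the others. Titles of the 2 groups share 5 starting codes, numbered here as replicates 1 to 5, and the same number in both groups marks a same-coded pair.

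Of the epithelial markers, 3 of 5 (miR-200a, miR-200b and miR-429) were detected on all 10 arrays, and miR-200c on 2 and miR-141 on 1. By the same measure, 0 of 6 for blood cells, 1 of 5 for muscle (miR-206), 1 of 3 for neurons (miR-128), 0 of 6 for endothelium and fibroblasts and 0 of 8 for embryonic stem cells were detected on all 10. Others of these lists were detected on part of the arrays, at low levels, with miR-126-3p on 9, miR-9 on 8, miR-214 on 6, miR-150 and miR-290-3p on 5, miR-126-5p on 2 and miR-451, miR-294 and miR-302b on 1. The remaining markers were detected on none, 4 of 6 for blood cells (among them miR-142-3p and miR-223), 4 of 5 for muscle (among them miR-1 and miR-133a), 1 of 3 for neurons (miR-124), 3 of 6 for endothelium and fibroblasts (miR-143, miR-145 and miR-199a-3p) and 5 of 8 for embryonic stem cells.

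The first question was whether aldosterone changed the level of these miRNAs. None of the 8 passed limma's test (Benjamini-Hochberg adjusted p under 0.05 over the 430 mouse probes detected on at least 5 arrays), and over all 430 probes 0, or 0%, passed. At an unadjusted p under 0.05 the count was 0 of 8 beside 8 of 430 (1.86%). Aldosterone and vehicle values overlapped for each of the 8. Mean levels were higher with aldosterone for 6, namely miR-18a, miR-19a, miR-19b, miR-20a, miR-20b and miR-106a, and lower for miR-17 and miR-92a, where 53.3% of the 430 probes were higher. A lower share of cells carrying a miRNA and less of it per cell cannot be told apart in such bulk RNA.

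**Figure D2:**
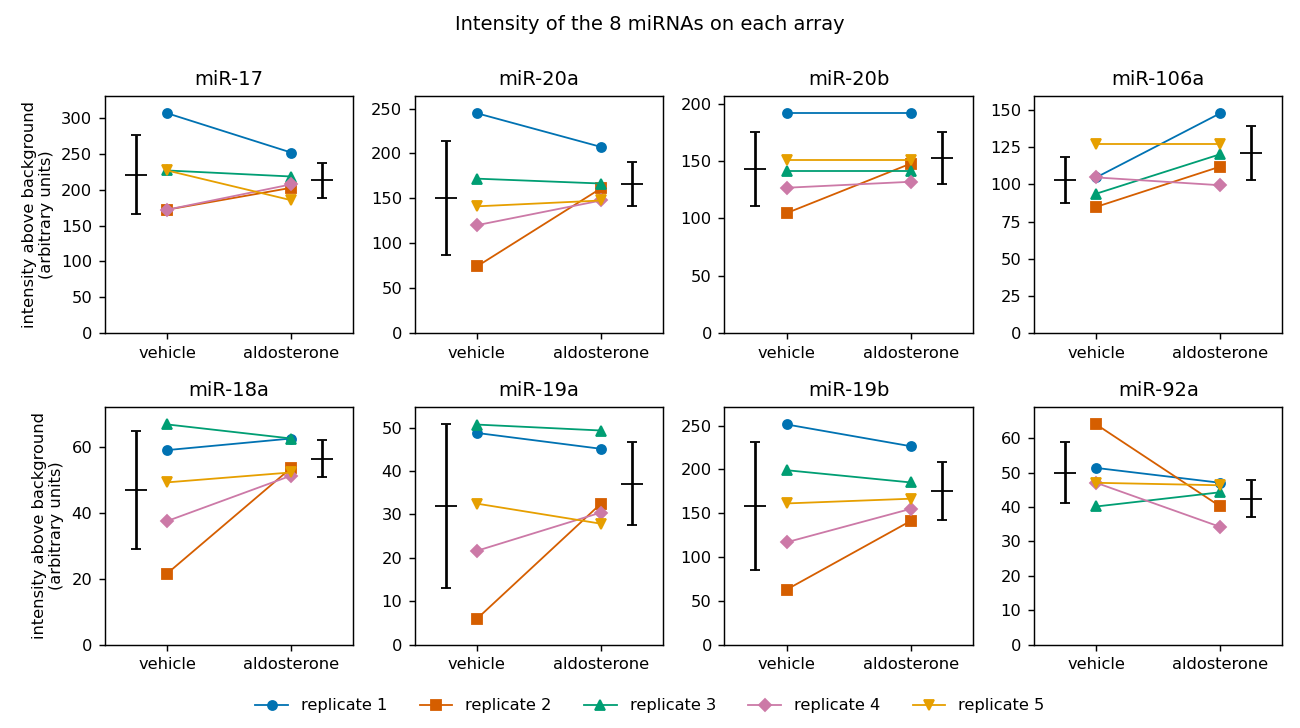
Each panel plots the intensity above background of 1 miRNA (arbitrary units, linear axis from 0) in the 5 vehicle and 5 aldosterone samples, with a line joining samples of the same replicate number and a bar for the mean ± SD of each group. The groups overlap in all 8 panels. After normalization vehicle replicate 2 is the lowest vehicle point for 7 of the 8 miRNAs, for miR-17 together with vehicle replicate 4. For miR-92a it is the highest.

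miR-17 gives the AAAGUGC seed its name and in human cells represses cell cycle genes such as CDKN1A and E2F1. It was at 306.3, 172, 226.6, 172 and 226.6 in vehicle replicates 1 to 5 and at 251.5, 202.5, 218.2, 207.3 and 185.2 in aldosterone replicates 1 to 5. Replicate 1 was the highest in both groups, and the aldosterone values lay within the vehicle range. The means were 221 ± 55.1 and 213 ± 24.6 (SD, n = 5), a log2 change of -0.02 with SE 0.13 and a 95% interval of -0.32 to 0.27 (limma adjusted p = 0.959).

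miR-20a, the other AAAGUGC miRNA of the chromosome 14 cluster, read 244.8, 74.3, 172, 120.2 and 141.2 in vehicle and 207.3, 161.2, 166.6, 147.7 and 147.7 with aldosterone. Vehicle replicate 2 was the lowest of the 10, and the aldosterone values lay inside the vehicle range. The log2 change was 0.16 with SE 0.20 (limma adjusted p = 0.944), higher in 3 of 5 pairs, and without vehicle replicate 2 it was 0.0018.

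miR-20b and miR-106a are the X-linked miRNAs of this seed. miR-20b was at 191.6, 104.6, 141.2, 126.7 and 151.1 in vehicle and at 191.6, 147.7, 141.2, 131.9 and 151.1 with aldosterone. In 3 of the 5 pairs the normalized values were tied, which quantile normalization gives when a probe holds the same rank on both arrays, and both other pairs were higher with aldosterone. Its log2 change was 0.08 with SE 0.12 (limma adjusted p = 0.946), and 0.0034 without vehicle replicate 2.

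miR-106a read 104.6, 84.8, 93.7, 104.6 and 126.7 in vehicle and 147.7, 111.9, 120.2, 99.35 and 126.7 with aldosterone. Aldosterone was higher in replicates 1, 2 and 3, tied in replicate 5 and slightly lower in replicate 4, and the groups overlapped. Means of 103 ± 15.7 and 121 ± 18.01 (SD, n = 5) gave a log2 change of 0.16 with SE 0.09 and a 95% interval of -0.04 to 0.36 (limma unadjusted p = 0.0961, adjusted p = 0.944). Of the 8 miRNAs this was the smallest unadjusted p. The change was on the higher side in all 30 alternatives run, samples or pairs left out included, as it was for miR-18a, miR-20a and miR-20b. It ran from 0.109 to 0.823 on the log2 scale, the latter in the deposited values, which carry no offset. The limma unadjusted p was under 0.05 in 4 of the 30, and the limma adjusted p was 0.495 or more in each. All 30 reuse the same samples.

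miR-18a represses the connective tissue growth factor gene and other members of TGF-beta signalling. It was at 59.2, 21.6, 67.0, 37.6 and 49.35 in vehicle and at 62.7, 53.8, 62.7, 51.4 and 52.4 with aldosterone. The aldosterone values lay close together, inside the wider vehicle range, and 4 of 5 pairs were higher, the count reached or passed by 19.8% of all tested probes. The log2 change was 0.16 with SE 0.12 (limma adjusted p = 0.944), and 0.05 without vehicle replicate 2, which was the lowest of the 10 arrays.

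In mouse lymphoma models the miR-19 miRNAs carry much of the oncogenic activity of the cluster. miR-19a read 48.8, 5.90, 50.7, 21.6 and 32.5 in vehicle and 45.1, 32.5, 49.35, 30.4 and 27.9 with aldosterone. miR-19b read 251.5, 62.7, 199.2, 116.8 and 161.2 in vehicle and 226.6, 141.2, 185.2, 155 and 166.6 with aldosterone. For both, vehicle replicate 2 was far under the other 9 arrays and the aldosterone values lay within the vehicle range. The log2 changes were 0.11 with SE 0.16 for miR-19a and 0.18 with SE 0.25 for miR-19b (limma adjusted p = 0.944 for each). Without vehicle replicate 2 both turned to the lower side, at -0.02 for each.

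miR-92a has the seed AUUGCAC and is known to repress the integrin subunit gene ITGA5 in human endothelial cells. It was at 51.4, 64.1, 40.2, 47.1 and 47.1 in vehicle and at 47.1, 40.2, 44.3, 34.2 and 46.4 with aldosterone. Here vehicle replicate 2 was the highest array after normalization only. Before it, the signal above background there was 26.6, near the lowest of 22.7 on vehicle replicate 4 and far from the highest of 102.8 on aldosterone replicate 3. After normalization aldosterone was lower in 4 of 5 pairs, the count reached or passed by 16.5% of all tested probes. The means were 50.0 ± 8.86 and 42.4 ± 5.32 (SD, n = 5). On the log2(intensity + 50) scale the change was -0.11 with SE 0.06 and a 95% interval of -0.25 to 0.03 (limma unadjusted p = 0.115, adjusted p = 0.944). Without vehicle replicate 2 the change was -0.06, and without both arrays of replicate 2 it was -0.05. It was on the higher side with no normalization between arrays (0.15), after scaling to spike controls (0.06) and in the deposited normalized values (0.23), all of which also put over 75% of the tested probes on the higher side.

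**Figure D3:**
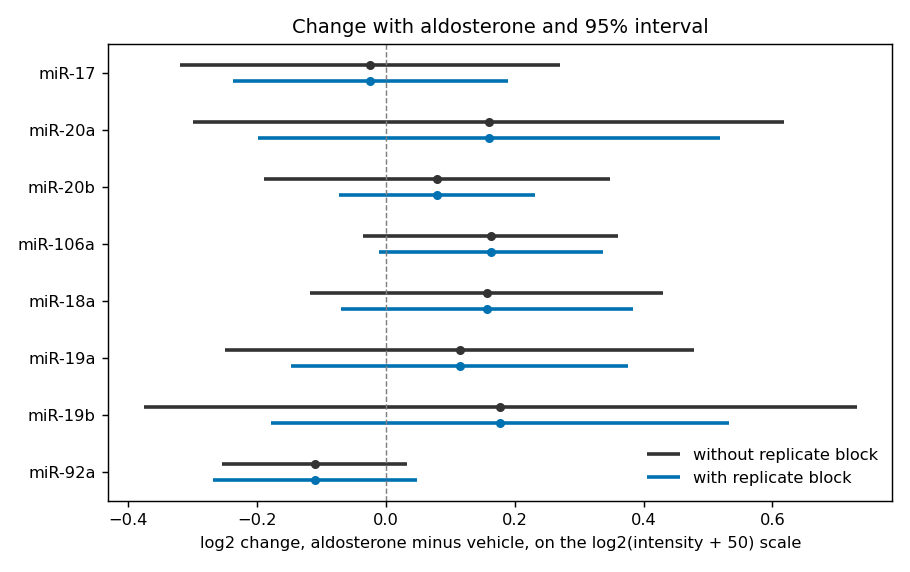
The log2 change of each miRNA (aldosterone minus vehicle, on the log2(intensity + 50) scale) is drawn with its 95% interval, without and with the replicate number as a block. All 16 intervals include 0, and the points of 6 miRNAs lie above it.

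The pairs did not move alike. In pair 2, which holds the dimmest array, 7 of the 8 miRNAs were higher with aldosterone, by up to 0.76 on the log2 scale for miR-20a, and 1, miR-92a, was lower. In pair 4, 6 were higher and 2 lower. In pairs 1 and 3, 2 were higher and 5 lower, and in pair 5, 3 were higher and 3 lower. Over all 5 pairs 0 of the 8 were higher in each (3.72% of the 430 probes were) and 0 were lower in each (2.33%). Without vehicle replicate 2, 4 of the 8 were on the higher side, as were 50.2% of the 430 probes. For the single pairs the share over all probes was not counted, so their counts do not show a trait of these miRNAs. The median log2 change of the 8 was 0.135, against 0.0025 over the 430 probes and -0.005 over the 243 detected on all arrays. The median of the absolute change was 0.135 for the 8, against 0.0209 over the 430 and 0.0401 over the 243. The 95% intervals of the 8 had half-widths of 0.143 to 0.553 (median 0.285), against a median of 0.0592 over all 430, many of which were dim and so held near the offset of 50 that was added before taking logarithms. The same offset shrinks all changes, those of dim probes most. The medians above were not matched for brightness, so they do not show that the 8 changed more than other probes. That vehicle replicate 2 was both the dimmest array and the lowest for 7 of the 8 miRNAs are values side by side, and the part that brightness has in these differences was not tested.

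**Figure D4:**
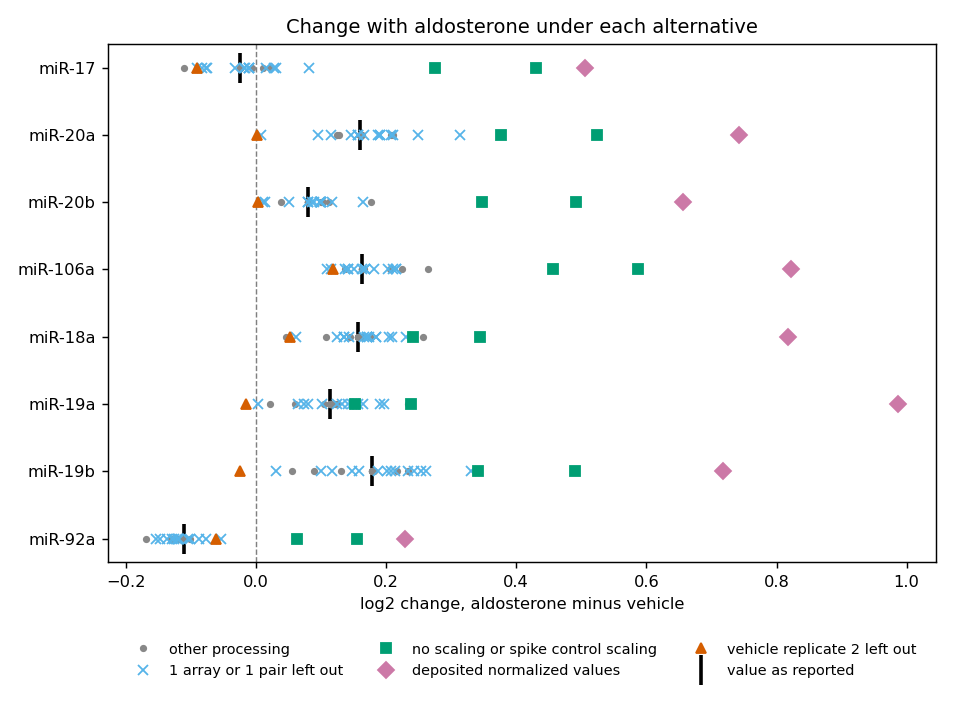
Points give the log2 change of each miRNA (aldosterone minus vehicle) under each of the 30 alternatives, samples or pairs left out included, beside the value reported. The deposited values were taken as log2 with no offset added, so their changes are on another scale. Leaving out vehicle replicate 2 moves miR-19a and miR-19b just under 0 and miR-20a and miR-20b to within 0.01 of it, while the deposited values and arrays left unscaled put all 8 miRNAs on the higher side.

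Same-numbered arrays deviated together, so each pair also served as its own control. With the replicate number as a block, 0 of 8 miRNAs and 0 of 430 probes passed (0%, smallest limma adjusted p = 0.744), and at an unadjusted p under 0.05 the counts were 0 of 8 and 19 of 430 (4.42%). The block narrowed the interval of miR-20b to -0.07 to 0.23 and that of miR-106a to -0.01 to 0.34 (limma unadjusted p = 0.0612, adjusted p = 0.744).

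The second question was how much the 5 replicate codes differed, whatever the treatment. By limma's F-test with treatment in the fit, 0 of the 8 miRNAs passed over the 430 probes, where 10 probes (2.33%) did. At an unadjusted p under 0.05 the count was 2 of 8 beside 84 of 430 (19.5%). Among the 243 probes detected on all arrays it was 75 (30.9%). The 2 miRNAs were miR-20b (limma F-test unadjusted p = 0.0207, adjusted p = 0.189) and miR-19b (limma F-test unadjusted p = 0.0387, adjusted p = 0.236). Replicate 2 had the lowest mean of the 5 codes for 7 of the 8 miRNAs, and replicate 1 had the highest for 4. The order of the codes over all tested probes was not counted, so this order is not shown to be particular to the 8. For miR-19b the code means, each over 1 vehicle and 1 aldosterone sample, ran from 102 in replicate 2 to 239 in replicate 1, and for miR-20b from 126.2 to 191.6. miR-92a had the narrowest range of code means, 0.17 on the log2 scale, with replicate 4 the lowest and replicate 2 the highest. The median signal before normalization was lowest in replicate 2 (9.80 and 15.3) and highest in replicate 3 (33.6 and 57.1). Before normalization the summed signal of the 8 probes was also highest in replicate 3 (1903 in vehicle and 2888 with aldosterone). The code means above are after normalization, and the part that brightness has in them was not tested. These counts moved with the scaling. With cyclic loess in place of quantile normalization 49 probes and 2 of the 8 miRNAs passed, and with no scaling between arrays 222 probes and all 8 did. Leaving out 1 sample or 1 pair gave 2 to 67 probes and 0 to 5 of the 8, with the most, 67 and 5, without aldosterone replicate 2.

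The 8 miRNAs split by how they varied over the 10 arrays. Each was set against the mean centred log2 profile of the others that were detected on all 10 arrays, so miR-19a entered no mean. The 10 arrays share their hybridization, brightness and normalization, so the values are descriptions. Pearson's r was 0.830 to 0.955 for miR-17, miR-18a, miR-19a, miR-19b, miR-20a and miR-20b. It was 0.530 for miR-106a and -0.391 for miR-92a. Vehicle replicates 2 and 1 were the farthest from the median of the mean profile. Without these, r was 0.724 to 0.886 for the first 6, 0.555 for miR-106a and 0.167 for miR-92a. The opposed course of miR-92a after normalization thus rests on those arrays.

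**Figure D5:**
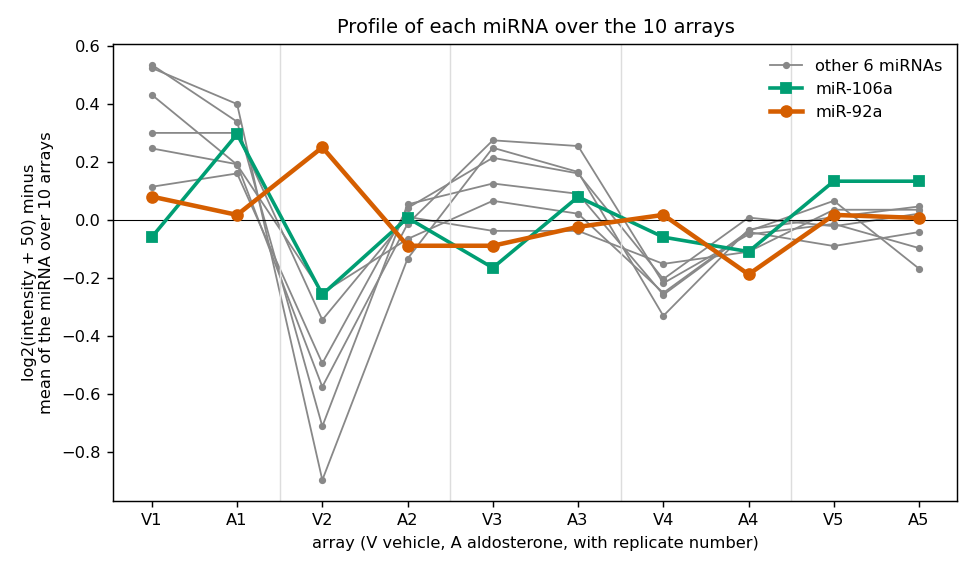
Each line is the log2(intensity + 50) of 1 miRNA minus its mean over the 10 arrays, with vehicle (V) and aldosterone (A) of each replicate side by side. The 6 grey miRNAs dip together on vehicle replicate 2, where miR-92a is at its highest after normalization, and miR-106a follows them less closely.

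Likeness was also taken pair by pair, as a description. Within a seed, r was 0.943 for miR-19a and miR-19b, 0.920 for miR-20a and miR-20b, 0.871 for miR-17 and miR-20a and 0.845 for miR-17 and miR-20b. miR-106a had lower values with the same seed, 0.675 with miR-20b, its neighbour on chromosome X, 0.487 with miR-20a and 0.296 with miR-17, from which it differs by U10A alone. Across seeds, r was 0.968 for miR-19b with miR-20a and for miR-18a with miR-19a. miR-92a was below 0 with each of the other 7, from -0.652 with miR-18a to -0.104 with miR-17. Among the 410 other tested probes, the 5 whose profile was most like the mean of the miRNAs detected on all arrays were miR-1982.2 (r = 0.906), miR-155 (0.905), miR-22* (0.889), miR-29a* (0.882) and let-7g (0.876), where an asterisk marks the other strand of a hairpin. The first of these was close to background, at 2.34 to 6.54 and detected on 6 arrays, and miR-29a* was at 4.53 to 10.8 and detected on 8. The mean profile was itself lowest on vehicle replicate 2, so probes picked by likeness to it tend to be low there. Each of these 5 was at its lowest on that array, let-7g for instance at 25.7 there and at 50.7 to 88.5 on the other 9 arrays. Without vehicle replicates 2 and 1 their r was 0.639 to 0.804.

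The 2 spots of the miR-106a probe had the largest median disagreement of the 8. Its first spot was 0.506 to 1.82 times as bright as the second (median 1.39), brighter on 7 of 10 arrays, and the median CV between the spots was 30.1%, against 2.23% for miR-92a to 11.5% for miR-20b. On a single array miR-18a reached a larger CV, 53.3% on vehicle replicate 2 against 46.4% for miR-106a on vehicle replicate 1. On vehicle replicate 1 the spots were at 69.8 and 137.9 above background before normalization, on vehicle replicate 3 at 252.3 and 138.4, and on aldosterone replicate 3 at 259.6 and 467.2. The brighter spot was thus the first on some arrays and the second on others. Of the 243 probes detected on all arrays, 5 (2.06%) had a median ratio as far from 1. The mean of miR-106a was higher with aldosterone in both spots. The log2 change was 0.14 from the first alone (limma unadjusted p = 0.383, adjusted p = 0.98). From the second alone it was 0.26 (limma unadjusted p = 0.11, adjusted p = 0.962). Both spots read the same RNA samples, so they are not separate evidence of a change. For miR-17 the sign depended on the spot, at 0.02 and -0.11.

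Of 10 probes for the other strands of the same hairpins, 2 were detected on all 10 arrays (miR-17* and miR-92a-2*) and 3 on none (miR-19a*, miR-19b-2* and miR-106a*). Of the 3 that could be tested, 2 were higher and 1 lower with aldosterone, with 0 past the threshold. miR-17* was at 16.01 ± 2.76 in vehicle and 16.5 ± 2.06 with aldosterone (log2 change 0.01, SE 0.03). miR-92a-2*, which comes from the chromosome X copy of miR-92a, was at 20.1 ± 6.44 and 17.3 ± 3.11 (log2 change -0.05, SE 0.06). miR-20a*, detected on 6 arrays, was at 5.86 ± 2.48 and 6.29 ± 1.52. Like miR-92a, miR-92a-2* was highest after normalization on vehicle replicate 2, at 30.9.

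The remaining miRNAs of the paralogous clusters are miR-18b and miR-363 on chromosome X and the miR-106b-25 cluster, whose members repeat the seeds of miR-17 and miR-92.
miR-106b: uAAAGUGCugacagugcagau
miR-93: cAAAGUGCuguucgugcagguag
miR-25: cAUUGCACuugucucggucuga
miR-106b differed from miR-17 by C1U, U10G and G20A over the 21 positions compared, miR-93 by U10G, A11U, C12U and A13C, and miR-25 from miR-92a by U1C, C14U and C18U. Of 10 probes for these clusters, other strands included, 5 were detected on all 10 arrays and 1, miR-363-3p, on none. Of the 8 tested, 3 were higher and 5 lower with aldosterone, 0 passed the threshold, and 1, miR-93*, had an unadjusted p under 0.05. It was at 8.12 ± 0.842 in vehicle and 6.64 ± 1.03 with aldosterone, a log2 change of -0.04 (limma unadjusted p = 0.0459, adjusted p = 0.944), and with the replicate block its unadjusted p was 0.0935 (limma adjusted p = 0.744).

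None of the guide strands of the miR-106b-25 cluster passed the test. miR-106b was at 176 ± 75.7 in vehicle and 199 ± 41.2 with aldosterone (log2 change 0.19, SE 0.22), miR-93 at 222 ± 36.9 and 224 ± 43.0 (0.01, SE 0.12) and miR-25 at 200 ± 36.5 and 194 ± 25.8 (-0.03, SE 0.11; SD, n = 5). miR-93 differed between the replicate codes at an unadjusted p of 0.00151 (limma F-test, adjusted p = 0.0521). miR-106b*, the other strand of miR-106b, was at 15.9 ± 2.56 and 13.02 ± 1.73, lower with aldosterone in 5 of 5 pairs, as in 2.33% of the tested probes (log2 change -0.06, limma unadjusted p = 0.0585, adjusted p = 0.944). With the replicate block its unadjusted p was 0.0286 (limma adjusted p = 0.744). miR-18b was detected on 9 arrays, at 9.43 ± 2.66 and 10.6 ± 2.71, and miR-363-5p on 10, at 12.1 ± 2.07 and 11.6 ± 1.63. Of the other miRNAs with the seed of miR-92a, miR-92b was at 18.1 ± 3.17 and 17.1 ± 2.07, miR-32 was detected on 1 array and miR-367 on none.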

How the data were processed

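Per the deposited note on the columns, each array file holds the raw intensity of every spot and the intensity above the blank spots for spots over the authors' threshold (blank mean plus 2 SD). The deposited normalized intensity is scaled to a median of 25 per array and served as an alternative. It was taken as log2 with no offset added, so its log2 changes are on another scale than those reported. The scanner is not given in the sources used here. From the raw intensity, background was corrected by normexp (offset 50), duplicate spots were averaged as log2 values (4 spots with a quality flag left out), and arrays quantile-normalized (R 4.3.3, limma 3.58.1). Printed intensities are on the linear scale without the offset. Since most signals are small beside it, log2 changes understate the changes in intensity, those of dim probes most. Probes detected on at least 5 of 10 arrays were tested, 430 of 1040, by lmFit and eBayes, two-sided, with Benjamini-Hochberg adjustment over all 430. The number of arrays limits the precision.

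Same-numbered samples correlated in their deviations from the group means at r of 0.202 to 0.814. Among the arrays of the other group, the same-numbered partner was the most alike for 9 of 10 arrays. Same-numbered samples were therefore also compared as pairs. The SEs, intervals and p-values for aldosterone leave this pairing out wherever the block is not named. The 8 miRNAs, the lists and the tests were chosen with earlier results of these data known. By rule all 8 were named, from each related list the probes detected on all arrays and those with the 3 smallest p, and the 5 probes most alike in profile. Sequences come from RefSeq tables (GRCm38.p6), read with Python 3.11.15.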

Additional observations from a re-analysis of the deposited data

Results flagged for a closer look

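In 3 of the 32 groups of 5 samples examined, over the 8 miRNAs and their 8 relatives detected on all 10 arrays, 1 sample stood apart from the rest of its group by more than Dixon's 95% critical value of 0.71 for its gap over the range. Chance gives about 1 in 20 groups. miR-106b was at 272.5 in aldosterone replicate 3, with the nearest of the others at 187.5 (ratio 0.860). miR-106b* was at 20.4 in vehicle replicate 2, with the nearest at 15.6 (0.767). miR-92b was at 20.65 in aldosterone replicate 1, with the nearest at 16.85 (0.728). None of the 8 miRNAs had such a sample.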

How the results depend on the processing

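Under all 30 alternatives 0 probes and 0 of the 8 miRNAs passed for aldosterone (limma, replicate block included). The block changed no call, and it moved the probes at an unadjusted p under 0.05 from 8 to 19. miR-17 turned to the higher side in the deposited values (0.505), without scaling (0.43), with spike control scaling (0.275), with 75th percentile scaling (0.0101) and from its first spot (0.0221), and ran from -0.0899 to 0.0808 with samples or pairs left out. miR-92a turned higher in the deposited values (0.229), without scaling (0.155) and with spike control scaling (0.0626). Without 1 sample or pair miR-19a was at -0.0151 to 0.197 and miR-19b at -0.0241 to 0.331. Higher probes made up 53.3% as reported, 96.0% without scaling, 75.3% with spike controls, 94.3% in the deposited values, 50.2% with cyclic loess and 16% with the 75th percentile, where 7 of the 8 miRNAs were higher. For the replicate codes the 10 probes and 0 of the 8 miRNAs became 49 and 2 with cyclic loess, 222 and 8 without scaling, 140 and 8 with spike controls, 100 and 7 in the deposited values, 8 and 1 from the first spot, and 2 to 67 and 0 to 5 with samples or pairs left out (67 and 5 without aldosterone replicate 2, 2 without vehicle or aldosterone replicate 3, 23 and 1 without pair 2). The cause was not tested. The single-spot fits and a threshold over all blank spots were added after the data were seen. At least 1 spot above the threshold gave 8 miRNAs detected on all arrays, and 3 SD gave 7. Signals near background limit miR-19a on vehicle replicate 2.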
